A study of Mus musculus with 6 samples.

Results

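The enzymes and chaperones that modify collagen inside the cell and crosslink it outside were followed in mouse embryonic fibroblasts that lack Klf4. The 10 genes, chosen by the gene symbol deposited for each probe, were Crtap, Plod1, Plod2, Plod3, P4ha1, P4ha2, P4hb, Serpinh1, Lox and Loxl1. They were read by 15 of the 46621 probes of the array, 1 probe each for 5 genes and 2 probes each for the other 5. The Klf4-null group held 3 samples with the genotype Klf4 -/-, and the wild-type group held 3 samples with the genotype Klf4 +/+. All 6 were C57Bl/6 cells with a labelled age of 13 days, grown with 10% serum to near confluence, and each gave 1 intensity per probe on an Illumina bead array, although the label field names both Cy3 and Cy5. Klf4 encodes a zinc-finger transcription factor, and the comparison asks which transcripts differ when it is disrupted. The labels name no separate embryos or cultures for the replicates, so p-values set a difference against the spread among these samples only. That spread may be technical.

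Fibrillar collagen is made as procollagen in the endoplasmic reticulum. There, prolyl 4-hydroxylases stabilise the triple helix, lysyl hydroxylases prepare lysines for sugar attachment and crosslinking, and a complex of Crtap, P3h1 and cyclophilin B modifies single prolines and assists folding. The chaperone Serpinh1 binds the folded helix, and after secretion and trimming the lysyl oxidases turn lysines into reactive aldehydes from which the covalent crosslinks of tendon, skin and bone form. Fibroblasts are the main source of these proteins in connective tissue.

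Each value below is a normalized probe intensity on a linear scale, as deposited, and levels of different probes are not set against each other. A background floor, estimated on each array from the spread of the dimmest probes, lay at intensities of 54 to 54.2. Of the 15 member probes, 14 exceeded the floor on 3 or more arrays and so entered a limma fit of 21825 probes in all. The genes had been proposed with this comparison already known, so their differences are given as a description, without a p-value for any of them. Of the 14, the fit called 9 at an adjusted p under 0.05, 6 higher and 3 lower in Klf4-null cells, where 38.9% of all probes tested were called (19% higher and 19.9% lower). Crtap, 1 of the 6, entered the fit through its null arrays alone. Intensities of the null and wild-type arrays did not overlap for 10 of the 15, against 28.6% of all deposited probes and 47.3% of those tested. Crtap alone differed by at least 2-fold, as did 6.4% of the probes tested. Nothing about the gene group is read from these counts. The median log2 fold change was 0.16 over the 14 and -0.02 over all 21825 probes tested.

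Klf4 itself was read by 3 probes. ILMN_1241903 gave 39.7, 46.8 and 43.7 on the null arrays against 98.7, 95.6 and 103 in wild type, and ILMN_1221264 gave 41.3 to 45.4 against 63.2 to 78. Both were at background on every null array. The brightest, ILMN_2593684, was higher at 702, 707 and 737 in null cells, against 403, 494 and 380 in wild type, and whether it lies inside the disrupted stretch is not given in the sources used here. The markers named next were chosen after their values were seen, each by its brightest probe unless stated.

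Of 10 fibroblast markers, 8 were above background on all 6 arrays, and their summed intensity overlapped between the groups, at 32421 to 33677 in null and 32911 to 33634 in wild-type cells. Most of that sum came from Vim, averaging 20678 in null and 20725 in wild-type cells, and S100a4, at 9024 and 8714. The overlap therefore says little about the dimmer markers. Over all 10 the sum was 32521 to 33775 in null and 36358 to 36697 in wild-type cells. The added pair were Thy1, which averaged 49.2 in null cells, at background on every array, against 3307 in wild type, and Postn, which was above background on 1 wild-type array only. Of the 9 tested, 1 rose, 4 fell and 4 did not pass. Prrx1 fell 2.23-fold, and on 3 of its 4 probes, Pdgfra fell 1.8-fold on its brighter probe and Col1a2 1.26-fold, while Twist1 rose 1.37-fold; Vim, S100a4, Fn1 and Pdgfrb did not pass. Of 7 macrophage markers, 4 were at background throughout, and the sum over all 7 was 1171 to 1272 in null and 734 to 770 in wild-type cells. Most of that gap was Cd14, which averaged 744 in null and 278 in wild-type cells. Cd68 did not pass on either probe (log2 fold changes of 0.13 and 0.22). Csf1r, too dim to be tested, averaged 38.3 in null and 49.5 in wild-type cells. The 5 cartilage and bone markers on the array summed to 906 to 1035 in null and 3833 to 4294 in wild-type cells. Most of that gap was Sox9, at 687 against 3757. Acan did not pass, and Col2a1, Runx2 and Sp7 were too dim to be tested. Sums overlapped for the endothelial (307 to 329 in null, 321 to 326 in wild type) and epithelial markers (253 to 263, 243 to 267). They also overlapped for skeletal muscle (203 to 214, 199 to 211). Few markers of these lists were above background on all 6 arrays, and Cdh5 alone was called, 1.2-fold lower. The part of these differences in the values below was not tested.

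Promoter sequence is shown for Crtap, the member with the largest difference, and for P4ha2 and P4hb, which encode a catalytic subunit and the shared subunit of the same hydroxylase and went opposite ways. These are the 250 bases before the annotated start of each gene, from RefSeq on build GRCm38.p6, 5′ to 3′ on the strand of the gene. Capitals mark CACCC or its reverse complement GGGTG, the core of the sites bound by Kruppel-like factors.
Crtap, chr9:114390713-114390962, minus strand: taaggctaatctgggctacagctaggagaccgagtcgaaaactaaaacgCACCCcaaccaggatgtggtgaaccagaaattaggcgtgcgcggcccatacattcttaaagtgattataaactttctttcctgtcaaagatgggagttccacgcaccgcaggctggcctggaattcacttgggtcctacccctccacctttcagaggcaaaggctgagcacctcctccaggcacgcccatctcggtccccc
P4ha2, chr11:54100674-54100923, plus strand: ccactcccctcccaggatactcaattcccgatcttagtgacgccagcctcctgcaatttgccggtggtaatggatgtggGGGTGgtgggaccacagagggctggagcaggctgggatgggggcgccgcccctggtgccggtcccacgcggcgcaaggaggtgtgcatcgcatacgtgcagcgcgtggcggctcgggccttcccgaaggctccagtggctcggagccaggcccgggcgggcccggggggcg
P4hb, chr11:120573254-120573503, minus strand: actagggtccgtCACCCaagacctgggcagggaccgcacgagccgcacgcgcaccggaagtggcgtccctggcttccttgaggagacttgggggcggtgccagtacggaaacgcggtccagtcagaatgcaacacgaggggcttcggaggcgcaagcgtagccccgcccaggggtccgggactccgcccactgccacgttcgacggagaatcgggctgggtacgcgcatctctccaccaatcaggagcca

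Such windows were at hand for 7 of the 10 members, namely Crtap, Plod1, Plod3, P4ha1, P4ha2, P4hb and Serpinh1. The letters CACCC, searched on both strands, occurred in 6 of these 7 windows and in 52% of all 32851 promoter windows of the same length. There was 1 match in each window except that of P4ha1, with 4, and that of Plod1, with none. The GC-box letters GGGCGG occurred in 5 of the 7 and in 32.7% of all windows, and ACGTG, the core of hypoxia response elements, in 5 of the 7 and in 16.6% of all. The window of Crtap held neither GGGCGG nor ACGTG, while that of P4ha2 held 2 matches of the first and 1 of the second, and that of P4hb held 3 and 1. In none of the 7 did a CACCC match share a base with a GGGCGG match. Whether these matches bear on the differences was not tested. A match is only a run of letters, not a site shown to be bound.

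Crtap, the non-enzymatic partner of prolyl 3-hydroxylase in bone and skin collagen synthesis, was the member with by far the largest difference. Its 1 probe, ILMN_1223997, gave 1701, 1458 and 1419 on the null arrays and 47.8, 44.4 and 47.7 on the wild-type arrays. All 3 wild-type values lay below the background floor, and all 3 null values were far above it, so the wild-type level has only an upper bound. The mean was 1526 ± 153 in null and 46.6 ± 1.93 in wild-type cells (SD, n = 3 each), at least 28.1-fold higher in null cells, with a fitted log2 fold change of 5.03 (SE 0.09). With no further probe deposited under this symbol, the low reading in wild-type fibroblasts rests on this probe alone. Where the probe lies in the transcript is not given in the sources used here, so a difference in transcript level cannot be told apart from a difference in isoform or sequence under the probe. The probe entered the fit through its null arrays alone, and it kept its call with no filter on dim probes. Among the 15 alternative settings tried, the 14 under which the probe was tested gave log2 fold changes of 4.60 to 6.10.

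**Figure D1:**
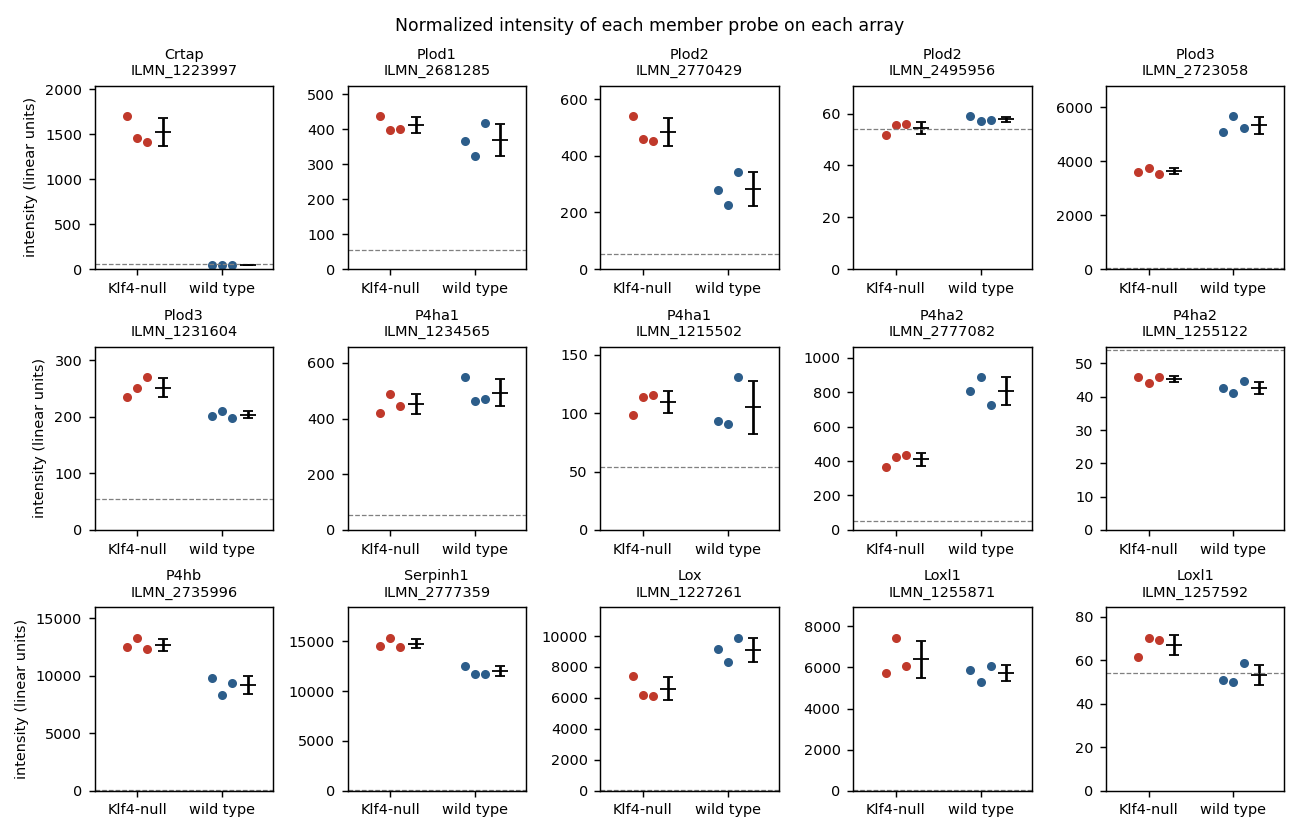
Normalized intensity (vertical axes, linear units from 0) of the 15 member probes, 1 panel each, on the 3 Klf4-null arrays (red, left) and the 3 wild-type arrays (blue, right); black bars are the mean and SD, and the dashed line is the mean background floor. The Crtap values are 1419 to 1701 in null cells and below the floor in wild type, whereas the 5 probes of Plod1, P4ha1 (both), Loxl1 (ILMN_1255871) and P4ha2 (ILMN_1255122) overlap between the groups.

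The other genes of prolyl 3-hydroxylation did not share the size of the Crtap difference. This list and those that follow were written from general knowledge of the pathway with earlier results of these data known, and each gene is represented by its brightest tested probe. Over all 16213 genes, 39.9% were called by the fit (19.3% higher and 20.6% lower) and the median log2 fold change was -0.03. Of the 6 partners of the prolyl hydroxylases, 3 rose, 2 fell and 1 did not pass, with a median log2 fold change of 0.45. Ppib, which encodes cyclophilin B, rose 1.76-fold, with 4152 ± 323 in null and 2363 ± 213 in wild-type cells (SD, n = 3 each; limma adjusted p = 6.7e-06). P3h1, the catalytic member of the complex, named after its values were seen, gave 223 ± 19.7 in null and 193 ± 13.4 in wild-type cells on its brighter probe (0.20, adjusted p = 0.0907), while its dimmer probe passed (0.24, adjusted p = 0.0394).

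P3h2, a prolyl 3-hydroxylase of basement membrane and fibrillar collagens, was, like Crtap, at background in wild-type cells and rose in null cells. Its probe ILMN_1249635 averaged 180 ± 6.5 in null cells, against 49.1 ± 2.29 in wild-type cells, and was at least 3.33-fold higher (adjusted p = 1.8e-10). This probe entered the fit through its null arrays alone, and with no filter on dim probes the limma adjusted p was 3.2e-10. A further probe, ILMN_1237255, was at least 2.72-fold higher, and the third was too dim to be tested. P3h4, which forms an endoplasmic reticulum complex with P3h3 and lysyl hydroxylase 1, rose 1.62-fold to 897 ± 35.1 in null cells, against 553 ± 37 in wild type (adjusted p = 9.2e-06). P3h3 itself, also named after its values were seen, fell to 498 ± 86.1 in null cells, against 701 ± 93.1 in wild type (log2 fold change -0.50, adjusted p = 0.0045).

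Of the subunits of collagen prolyl 4-hydroxylase, the catalytic P4ha2 was lower and the shared P4hb higher in null cells, while the catalytic P4ha1 overlapped between the groups. P4ha2 encodes one of the catalytic alpha subunits, and its probe ILMN_2777082 gave 366, 426 and 436 on the null arrays and 810, 888 and 728 on the wild-type arrays. Every null value lay below every wild-type value, by 1.98-fold on average (log2 fold change -0.98, SE 0.10), which was the largest difference downwards among the members. The other P4ha2 probe, ILMN_1255122, lay below the floor on all 6 arrays, at 45.3 ± 0.969 in null and 42.7 ± 1.76 in wild-type cells, and was not tested.

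P4ha1, the main catalytic alpha subunit of most cells, gave 421, 489 and 447 on the null arrays and 549, 462 and 469 on the wild-type arrays with probe ILMN_1234565. The groups overlapped (log2 fold change -0.12, SE 0.09). Its dimmer probe gave 98.5, 114 and 116 in null and 93.8, 90.5 and 131 in wild-type cells, and overlapped as well (0.08, SE 0.13). Neither was called, and the sign of the dimmer one turned to -0.02 when wild-type replicate 2 was left out. P4ha3, a less widely expressed alpha subunit and no member of the group, fell 1.48-fold to 67.8 ± 8.84 in null cells, against 101 ± 13.3 in wild type (adjusted p = 9.6e-04), and its dimmer probe did not pass (-0.13, adjusted p = 0.21).

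P4hb encodes protein disulfide isomerase, which is both the beta subunit of prolyl 4-hydroxylase and a general folding enzyme. It gave 12472, 13270 and 12303 on the null arrays and 9811, 8294 and 9360 on the wild-type arrays. All null values were above all wild-type values, 1.39-fold on average (log2 fold change 0.47, SE 0.08). In the list of 9 other disulfide isomerases and oxidases, 1 rose, 2 fell and 6 did not pass, with a median log2 fold change of 0.11. Pdia3 rose 1.28-fold (0.35, SE 0.09, adjusted p = 0.0059), Pdia5 fell 1.84-fold on its brighter and 1.62-fold on its dimmer probe, and Pdia4 did not pass (0.18, adjusted p = 0.302). Without wild-type replicate 3, Pdia4 gave 0.35 and passed. Tmx1, at -0.20 with an adjusted p of 0.0479, lost its call under 11 of 15 alternatives, among them each array left out in turn, with values of -0.22 to -0.18.

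**Figure D2:**
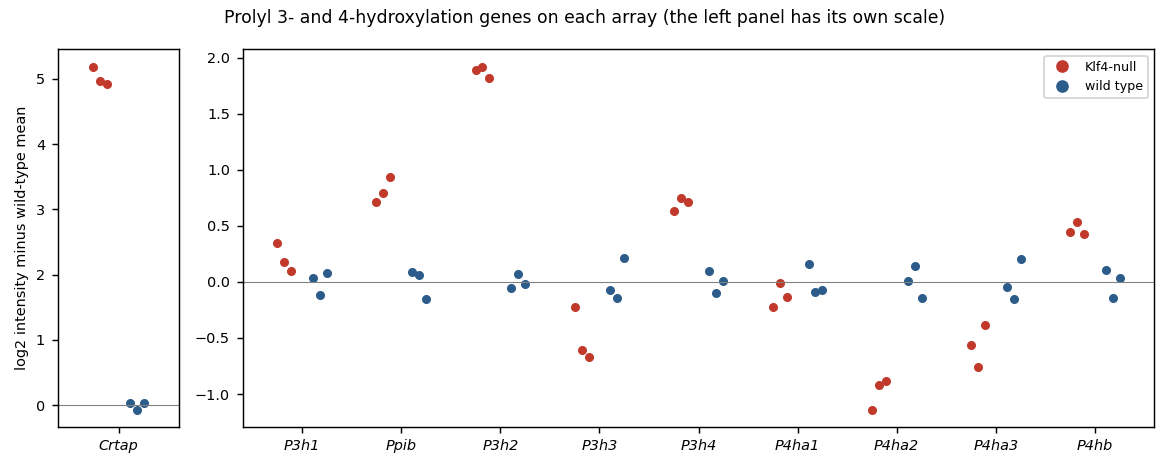
Log2 intensity minus the wild-type mean (vertical axes) for genes of prolyl 3- and 4-hydroxylation, each by its brightest tested probe, on the 3 Klf4-null arrays (red, left of each pair) and the 3 wild-type arrays (blue). Crtap has a scale of its own in the left panel, at a log2 fold change of 5.03. In the right panel P3h2, Ppib, P3h4 and P4hb lie above and P4ha2, P4ha3 and P3h3 below the wild-type points. P3h1, which did not pass, also lies above them, by a narrow gap.

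The lysyl hydroxylases, which modify collagen lysines before crosslinking, followed no common direction. Plod1, the lysyl hydroxylase of helical lysines, gave 437, 397 and 401 on the null arrays and 367, 324 and 417 on the wild-type arrays, and the groups overlapped (log2 fold change 0.16, SE 0.10). It was not called, except when wild-type replicate 3 was left out, where its log2 fold change was 0.25. Plod2, which hydroxylates the telopeptide lysines of hard-tissue crosslinks, gave 540, 458 and 454 in null and 281, 225 and 344 in wild-type cells with probe ILMN_2770429. The groups did not overlap, and the null mean was 1.73-fold higher (0.79, SE 0.13). The wild-type spread of this probe was wide, with a coefficient of variation of 21% against 10% in null cells. The other Plod2 probe lay close to the floor, with 51.8, 55.7 and 56.1 in null and 59, 57.1 and 57.6 in wild-type cells, and was not called (-0.09, SE 0.08).

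Plod3, a lysyl hydroxylase that also adds glucose to hydroxylysine already carrying galactose, was read by a pair of probes that differed in opposite directions. The bright probe ILMN_2723058 gave 3607, 3764 and 3533 on the null arrays and 5072, 5667 and 5237 on the wild-type arrays. The dimmer probe ILMN_1231604 gave 235, 250 and 270 in null and 202, 211 and 198 in wild-type cells. Groups overlapped on neither probe, and the log2 fold changes were -0.55 (SE 0.08) and 0.30 (SE 0.08). Because the probes disagree, no direction is given for the gene. Each kept its sign under all 15 alternatives, but without overlap, leaving out an array could not have changed it. Of the collagen galactosyltransferases, which act on the same hydroxylysines, Colgalt1 fell 1.35-fold, with 2531 ± 136 in null and 3421 ± 46.3 in wild-type cells (adjusted p = 4.2e-04), although its dimmer probe gave -0.01 (adjusted p = 0.958). Colgalt2 was at background on all 6 arrays.

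**Figure D3:**
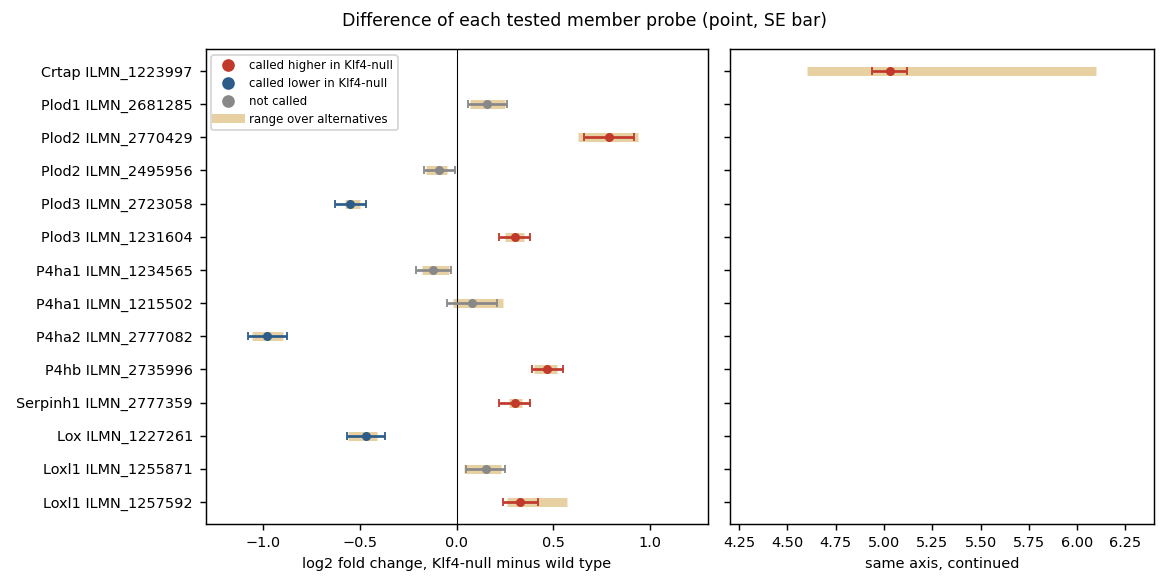
Log2 fold change, Klf4-null minus wild type (horizontal axis, continued at the right for Crtap), of the 14 tested member probes, with SE bars; red and blue points were called higher and lower by the fit across all probes, grey points were not, and tan bars span the alternative settings. The points run from -0.98 for P4ha2 to 5.03 for Crtap, and the probes of Plod3 lie on opposite sides of 0.

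Serpinh1 encodes the collagen-specific chaperone also known as HSP47. It gave 14520, 15318 and 14427 on the null arrays and 12549, 11679 and 11707 on the wild-type arrays. The null values were all above the wild-type values, by 1.23-fold on average (log2 fold change 0.30, SE 0.08). Over 11 further genes of procollagen folding and export, 2 rose, 3 fell and 6 did not pass, with a median log2 fold change of -0.16. Fkbp14, a prolyl isomerase of the endoplasmic reticulum, fell 4.53-fold, with 68.2 ± 4.01 in null and 309 ± 11.9 in wild-type cells (adjusted p = 4.4e-11).

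Fkbp10, an isomerase that assists lysyl hydroxylase 2, rose 1.54-fold on its bright probe (adjusted p = 0.0048) and fell on its dim probe (log2 fold change -0.30, adjusted p = 0.0071). Sec23a, a coat protein of the vesicles that carry procollagen, fell on both probes, 1.55-fold on the brighter (adjusted p = 2.6e-04). Tmem38b, a cation channel of the endoplasmic reticulum whose loss causes brittle bones in humans, fell 1.54-fold (adjusted p = 5.5e-05).

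Outside the cell, Lox, the founding lysyl oxidase, was lower in null cells. It gave 7447, 6220 and 6144 on the null arrays and 9147, 8332 and 9871 on the wild-type arrays. The groups did not overlap, and the wild-type mean was 1.38-fold the null mean (log2 fold change -0.47, SE 0.10). Loxl1, needed for elastic fibre renewal, gave 5717, 7432 and 6052 in null and 5864, 5296 and 6052 in wild-type cells on its bright probe, with overlap and no call (0.15, SE 0.10). Its dim probe gave 61.7, 70.3 and 69.3 in null and 51.1, 50.1 and 58.8 in wild-type cells, above the floor on 1 of 3 wild-type arrays, and was called higher (0.33, SE 0.09). That value was 0.57 when background was subtracted, in contrast to the bright probe, for which no alternative gave a call.

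Of 5 other crosslinking enzymes, Loxl2 was at background on all arrays and Loxl3 was above it on 1 array. The remaining 3 all passed, 1 higher and 2 lower. Loxl4 fell 2.67-fold, with 182 ± 33.4 in null and 482 ± 61.6 in wild-type cells (adjusted p = 7.3e-07), and its dim probe did not pass (-0.11, adjusted p = 0.435). Tgm2, a transglutaminase, fell 1.53-fold (adjusted p = 2.9e-05), and Pxdn, the peroxidase that forms sulfilimine bonds in basement membrane collagen, rose 1.8-fold (adjusted p = 3.1e-06) on its brightest probe. In these bulk samples, fewer cells that express a gene and less RNA per cell cannot be told apart.

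Procollagen is trimmed before it is crosslinked, and the genes of this step divided. Of 8 listed, 4 were tested and all 4 passed, while Tll1, Tll2, Adamts3 and Adamts14 were too dim. Adamts2, the amino-propeptide peptidase, fell 16-fold, with 62.5 ± 3.79 in null and 997 ± 77.4 in wild-type cells (adjusted p = 1.9e-13), and its other probes fell at least 8.55-fold and at least 4.21-fold. Bmp1, the carboxy-propeptide peptidase that also activates Lox, fell 1.33-fold (adjusted p = 0.0012), with 1 of its 3 probes at 0.00 (adjusted p = 0.986). The enhancers of Bmp1 went the other way. Pcolce rose 1.46-fold (adjusted p = 8.3e-04), and Pcolce2 rose at least 2.89-fold, with wild type at background (adjusted p = 3.1e-10). Pcolce2 entered the fit through its null arrays alone, and with no filter on dim probes its limma adjusted p was 5.0e-10.

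Among the substrates, 4 of 9 tested fibrillar collagen chains rose, 1 fell and 4 did not pass, with a median log2 fold change of 0.31. Col3a1 rose 5.65-fold, Col5a2 3.05-fold and Col1a1 2.1-fold (adjusted p = 3.9e-11, 4.8e-09 and 1.0e-04). Col1a2 fell 1.26-fold (log2 fold change -0.34, adjusted p = 0.0144), a call that was lost without Klf4-null replicate 2 (-0.24, adjusted p = 0.092). Of 6 substrates and binding partners of the lysyl oxidases, 3 were tested. Efemp2, a fibulin that binds Lox, rose 2.35-fold, the microfibril protein Fbn1 rose 2.72-fold on its brightest probe, and Fn1 did not pass (0.10, adjusted p = 0.566). Eln, Fbln5 and Postn were too dim to be tested.

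**Figure D4:**
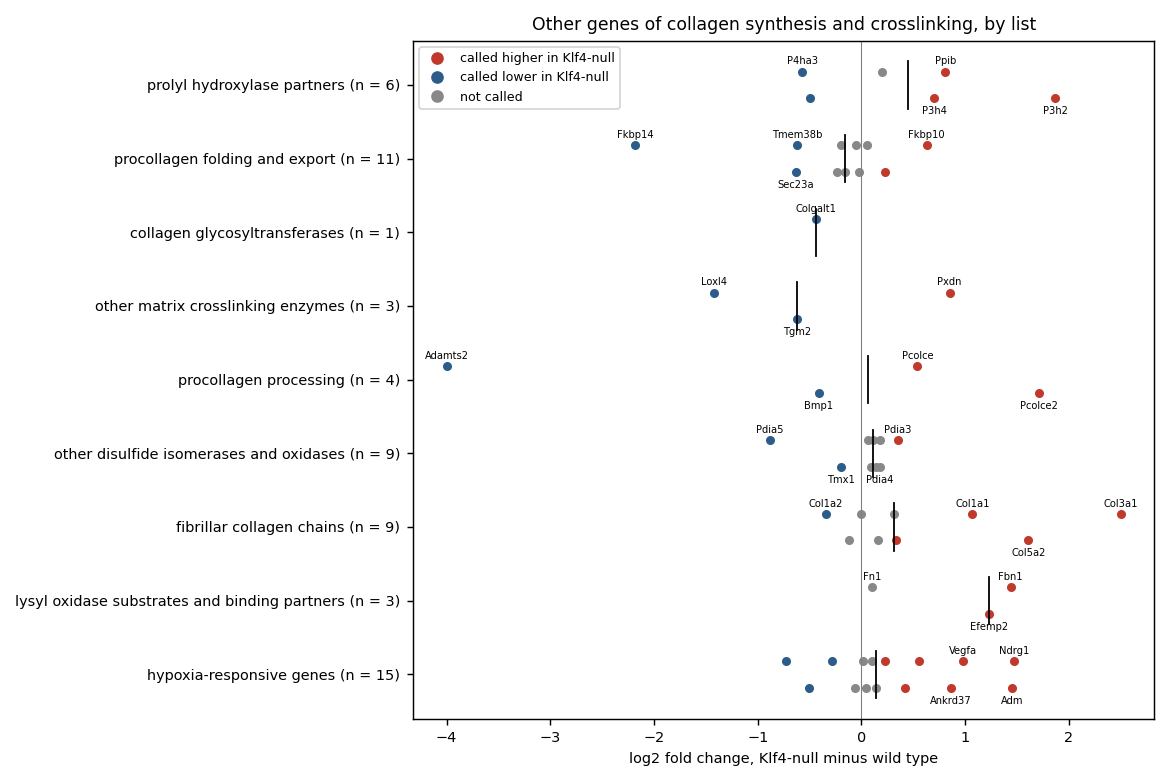
Log2 fold change, Klf4-null minus wild type (horizontal axis), of each tested gene that is not a member, by list (rows), with the median as a black bar; red rose, blue fell and grey did not pass in the fit. Named genes are those with the largest changes in each list, from -4.00 for Adamts2 to 2.50 for Col3a1, and the lists of crosslinking, processing and hydroxylase partner genes hold genes on both sides of 0.

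The genes whose profile over the 6 arrays was most like that of Crtap on the log2 scale were Eya4, Pdrg1 and Stac2, with Pearson correlations of 0.9999, 0.9998 and 0.9998. The genes most like P4ha2 were Ciapin1, Tnrc6c and Mnat1, at 0.9999, 0.9990 and 0.9987. With 6 arrays in 2 groups, such values mostly measure the difference between the groups, and 694 probes had a correlation over 0.99 with Crtap and 170 with P4ha2.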

How the data were processed

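Total RNA was labelled for Illumina arrays, per the labels' protocols. The authors' deposited intensities, 1 per probe and array, were already on a common scale (array medians of 51.7 to 51.8). How they were normalized, whether background was subtracted and the scanner software are not given in the sources used here. Probe symbols came from the other deposited file, whose 12 columns of per-sample values match no sample's labels and were not used. RefSeq names (GRCm38.p6) updated 8745 symbols.

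Log2 intensities were fitted with limma 3.58.1 in R 4.3.3 (lmFit, eBayes, no covariates, 2-sided, Benjamini-Hochberg over 21825 probes above the floor on at least 3 arrays). The floor of an array is the 95th percentile of a background distribution made from its log2 values below the mode, mirrored about the mode. The code of the fit was tried on simulated data, in which far fewer probes changed than were called here. Alternatives changed the filter, background, normalization, variance model, test, replicate block and arrays. The number of arrays limits precision. Members and lists were chosen with earlier results of these data known. Named genes are all members, Klf4, up to 4 genes per list with the largest changes, and the 3 genes most like Crtap and P4ha2; others are said to be named after their values were seen.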

Additional observations from a re-analysis of the deposited data

How the results depend on the processing

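The count of probes called stayed within 1.5 times of 8483 under 14 of 15 alternatives, that of member probes (9 of 14) under 14 of 15, and that of listed pathway genes (38 of 61) under 15 of 16. The exception each time was a test against a 1.5-fold change, which called 1766 probes, 2 member probes (Crtap and P4ha2) and 13 pathway genes and asks for a larger change by construction. Of the 29 named pathway genes called, 16 lost the call in that test. Leaving out each array in turn gave 7174 to 8248 probes, 9 to 10 member probes and 33 to 38 pathway genes. No called value of a member probe changed sign under any alternative tried. Groups of those probes did not overlap, so leaving out an array could not have changed a sign. The replicate numbers gave no sign of a pairing, as correlations of the deviations of same-numbered samples were -0.0164, 0.0532 and -0.225. Of 6 samples, 0 correlated best with their own number, and a link between differently numbered samples was not tested. With the replicate block, 8052 probes, 9 member probes and 36 pathway genes were called. Background left in the intensities would shrink the fold changes of dim probes: with it subtracted, Crtap gave 6.10 and the dim Loxl1 probe 0.57. Dim probes near the floor, such as the second probes of P4ha2, Plod2 and Loxl1, carry little information on their genes.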

Other observations

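Plod2, P4ha1, P4ha2 and Lox are known to be induced when oxygen is low, so other genes with that response are given here. Of 15 tested hypoxia-responsive genes, 7 rose, 3 fell and 5 did not pass in null cells, with a median log2 fold change of 0.14, where 39.9% of all genes were called. Ndrg1 rose 2.78-fold, the vasodilator peptide gene Adm 2.73-fold, the growth factor Vegfa 1.97-fold and Ankrd37 1.82-fold (adjusted p = 6.2e-08, 1.5e-08, 1.5e-07 and 4.2e-05 by limma, n = 3 per group). The genes named next were named after their values were seen. Ddit4, Mxi1 and Slc2a1 also rose (log2 fold changes of 0.56, 0.42 and 0.23, adjusted p = 4.0e-05, 0.0012 and 0.0403). Egln3, Pdk1 and Pgk1 fell (log2 fold changes of -0.73, -0.51 and -0.28, adjusted p = 1.7e-05, 2.9e-04 and 0.0188). Dimmer probes of Mxi1 (0.14, adjusted p = 0.244) and Egln3 (0.05, adjusted p = 0.683) did not pass. Of the 4 members of that kind, Plod2 was higher on its brighter probe, P4ha2 and Lox were lower, and P4ha1 overlapped between the groups. Oxygen in the cultures is not given in the labels, and its part in these values was not tested.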
